A study of Homo sapiens with 15 samples.

Results

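The genes described here code for proteins of nucleolar ribosome biogenesis, the assembly of ribosomal subunits in the nucleolus. They were chosen as a list of 36 gene symbols, and each gene was represented by its probe set with the highest mean signal over all arrays, among probe sets that the platform annotation gives a single symbol. Of the 36, 31 had such a probe set. All 31 passed the filter on low signal, among 12868 genes tested. NOP56, DKC1, BOP1 and PPAN share their probe sets with other symbols, GNL3 has none listed, and these 5 were not analysed here.

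Affymetrix arrays were used to profile total RNA of IMR32, an established cell line from a human neuroblastoma, into which an inducible MSX1 gene had been introduced. MSX1 encodes a homeodomain transcription factor, and doxycycline in the medium switched it on. The 15 arrays fall into 5 groups of 3: a t = 0 group, 3 groups induced with doxycycline and taken at t = 8, t = 24 and t = 48, and a control group kept without doxycycline to t = 48, all of them carrying the MSX1 construct. The labels give no unit of time and do not say whether the line was 1 clone. Control cells of t = 8 or t = 24, and cells given doxycycline but lacking the construct, were not analysed here. In the comparisons of induced cells with t = 0, induction, doxycycline and time in culture therefore cannot be told apart. Between induced and control cells at t = 48, MSX1 induction and doxycycline itself cannot be told apart either. Nothing says that the replicates were separate cultures, so a p-value reflects how these samples scatter, which could be technical scatter alone.

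Ribosomal RNA is transcribed by RNA polymerase I in the nucleolus, where small nucleolar ribonucleoproteins (snoRNPs) guide its chemical modification and cleavage. Box C/D particles guide methylation and box H/ACA particles guide pseudouridylation. Assembly factors then fold, cut and load the transcript into the precursors of the small and the large ribosomal subunit. Many of these genes are known targets of MYC and of its relative MYCN, and MYCN is amplified in IMR32 cells.

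The arrays had been scaled to a common mean, and their medians lay between 18.1 and 22.6 signal units. Correlations between arrays ranged from 0.950 to 0.988. MSX1 averaged 111 ± 13.6 in the t = 0 group, 161 ± 22.1 in the t = 8 group, 165 ± 20.8 in the t = 24 group and 83.2 ± 14.7 in the induced t = 48 group, and 50.7 ± 4.52 in the control group (SD, n = 3). It was higher in induced than in control cells at t = 48 (log2 difference 0.65, adjusted p = 0.0163). Both groups of t = 48 read below t = 0, by limma with -0.40 in induced cells (adjusted p = 0.0775) and -1.05 in control cells (adjusted p = 0.00500), while the difference at t = 24 from t = 0 was 0.56 (adjusted p = 0.0299). The bioC hybridisation control was weak in replicate 1 of induced t = 24 (94.4) and replicate 3 of induced t = 48 (110), 2 arrays, against 326.1 to 448.7 on the others. The median signals of these 2 arrays, 22.0 and 21.1, lay within the range of the others. The control probe sets for small-subunit ribosomal RNA were brightest in replicate 3 of t = 0 (590.5), with 183.2 as the next value; the induced t = 48 group gave 114 to 183.2 and the control group 73.2 to 94.3. The part of these array controls in the differences was tested only by leaving arrays out. Of 8 listed markers of sympathetic neuroblasts, GATA3 and MYCN were bright on every array and TH averaged at most 7.27 in any group. Of 6 tested, PHOX2A was higher in induced than in control cells at t = 48 (1585 and 976, log2 difference 0.70) and ISL1 lower (232 and 528, -1.20, adjusted p = 0.00819), and 5 had negative differences. Of all genes, 5.31% were higher and 3.29% lower in that comparison.

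As a group, the nucleolar genes read slightly lower in induced cells at t = 24 and t = 48 than at t = 0. In every comparison with t = 0, 0 members were higher past the threshold, an adjusted p of 0.05 by limma over all genes tested. RRP12 was lower at t = 8. RRP9, RRP12, WDR74 and MRTO4 were lower at t = 24, and all of these together with BYSL and POLR1C were lower at t = 48. Their differences at t = 48 lay between -0.43 and -0.33 on the log2 scale, or 0.744 to 0.797 of the level at t = 0. Induced and control cells at t = 48, the pair matched in time, had 0 members past the threshold. In a bulk sample, fewer cells of a kind and less RNA per cell cannot be told apart, and the scaling removes any change shared by all RNA.

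The median over the 31 members of each gene's deviation from its own mean over all arrays gives 1 value per array. On the log2 scale it was 0.10 to 0.12 on the t = 0 arrays, 0.01 to 0.05 at t = 8, -0.11 to -0.002 at t = 24 and -0.10 to -0.05 at t = 48 in induced cells, and 0.01 to 0.03 in control cells at t = 48. The t = 0 arrays were the highest of the 15, the control arrays overlapped with those of t = 8, and the induced arrays of t = 24 and t = 48 were the 6 lowest.

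**Figure D1:**
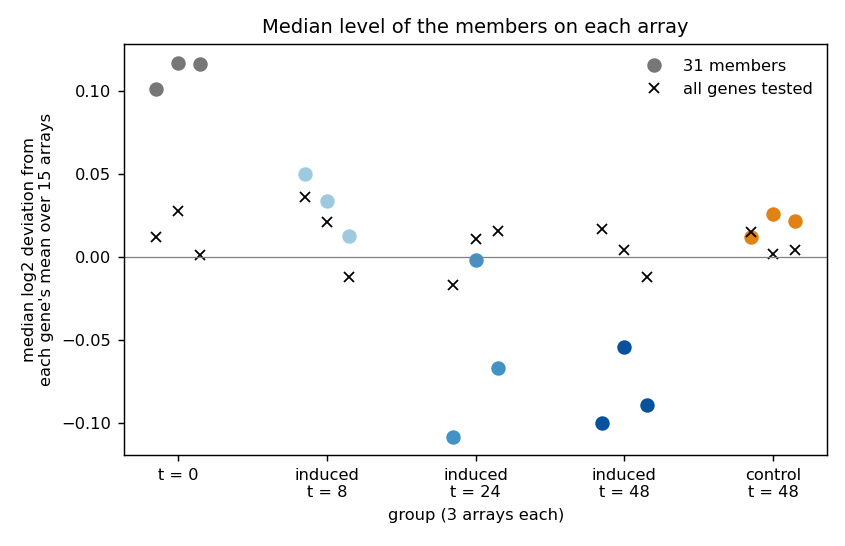
Median log2 deviation of the 31 members (filled circles) and of all genes tested (crosses) from each gene's mean over the 15 arrays, 1 symbol per array, by group. The circles lie at 0.10 to 0.12 at t = 0 and below 0 on every induced array of t = 24 and t = 48, while the crosses stay near 0.

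At t = 24 against t = 0, 4 of 31 members (12.9%) were lower past the threshold and 0 were higher, while of all genes tested 4.87% were lower and 5.96% higher. The members' median difference was -0.18, against -0.01 for all genes, and 25 of 31 were negative. In 11 members (35.5%) all 3 induced arrays lay below all 3 arrays of t = 0, as did 15.4% of all genes. These shares describe a list chosen with earlier results of these arrays known. Leaving out the pair of weakly hybridised arrays left 3 members lower, with a median of -0.13. The count was 2 without t = 24 replicate 1, t = 0 replicate 2 or t = 0 replicate 3, and 1 with each array centred on its median or with the compared groups fitted alone; RRP9 passed in each of these.

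At t = 48 against t = 0, 6 of 31 members (19.4%) were lower and 0 were higher, beside 8.2% and 9.93% of all genes. The median of the members was -0.22, that of all genes -0.02, and 25 of 31 were negative. All 3 induced arrays lay below all 3 arrays of t = 0 in 15 members (48.4%) and in 18.5% of all genes. This count rested on few arrays. It was 3 (RRP9, WDR74 and POLR1C) without the pair of arrays with weak bioC. It was 1 (WDR74) without induced replicate 3 or without t = 0 replicate 3, and 0 with each array centred on its median.

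Induced t = 48 replicate 3, the array of its group with weak bioC, held the lowest signal of the 3 for 16 of the 31 members measured. It also did so for all 7 of the 7 members that passed in any comparison. Induced t = 24 replicate 1 held the lowest signal of its group for 5 of the 7 and for 15 of the 31. The 7 were called with these same arrays in the fit, which favours such counts in advance. The shares of all genes with their lowest signal on these arrays were not computed. The part of the weak bioC arrays in the differences was not tested beyond the values without them.

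At t = 8 against t = 0, 1 member (3.23%), RRP12, was lower and 0 were higher, while 0.995% of all genes were lower and 1.1% higher. The median was -0.04. In 5 members (16.1%) the induced arrays all lay below those of t = 0, as in 6.89% of all genes. The call was lost without t = 0 replicate 1 or 3, or without any 1 of the t = 8 arrays.

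Between induced and control cells at t = 48, 0 members were lower and 0 higher past the threshold, beside 3.29% and 5.31% of all genes; 3 members, NAT10, BYSL and RRP9, had an unadjusted p under 0.05 (9.68%, beside 23.5% of all genes). The lowest adjusted p was 0.113, for NAT10. The median of the members was -0.10 (all genes -0.01), 23 of 31 were negative, and the single differences lay between -0.28 for GAR1 and 0.14 for NIP7. All 3 induced arrays lay below all 3 control arrays in 6 members (19.4%), NAT10, NHP2, NOP10, POLR1C, RRP12 and WDR74, against 15.4% of all genes. That share was close to the background.

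Control cells at t = 48 against t = 0 also had 0 members lower and 0 higher, beside 0.365% and 0.482% of all genes, and 2 members, WDR74 and MRTO4, had an unadjusted p under 0.05 (6.45%, beside 11.2% of all genes; lowest adjusted p = 0.243). Their median was -0.10 and 23 of 31 were negative. In 2 members (6.45%), WDR74 and NHP2, the control arrays all lay below those of t = 0, against 9.75% of all genes. The comparisons of induced and of control cells with t = 0 share the t = 0 arrays.

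Within the induced course, NOP2 alone was lower at t = 24 than at t = 8, 1 member of 31 (3.23%) with 0 higher, beside 2.84% of all genes lower and 3.46% higher. With arrays centred on their medians, 29.4% of the genes called there were lower, against 45.1% as reported here. At t = 48 against t = 24, 0 members passed in either direction (1.62% of all genes lower, 2.42% higher). An unadjusted p under 0.05 was reached by 2 members, BYSL and POLR1C (6.45%, beside 14.7% of all genes), with a lowest adjusted p of 0.106 for BYSL. By the F-test over the induced course, 6 members (19.4%) changed, RRP9 (adjusted p = 0.00692), WDR74 (0.00739), RRP12 (0.00961), NOP2 (0.0238), POLR1C (0.0324) and BYSL (0.0453), beside 20.2% of all genes. The members' share by that test did not exceed the background.

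**Figure D2:**
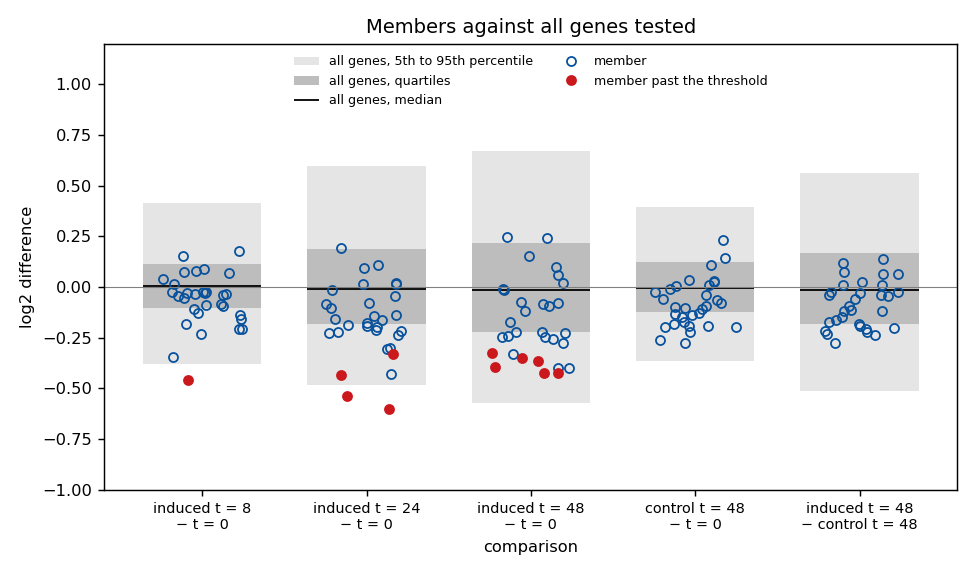
Log2 differences of the 31 members (open circles; filled red where past the threshold) in 5 comparisons, over the 5th to 95th percentile (light), quartiles (dark) and median (line) of all genes tested. In the comparisons of t = 24 and t = 48 with t = 0, 25 of 31 members lie below 0, and the members that passed lie between -0.60 and -0.33.

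Some genes listed as markers of fibroblasts also moved with time. The 8 gave a summed signal of 1205 to 1360 in the t = 0 group, 1625 to 1837 in the t = 8 group, 2480 to 2546 in the t = 24 group and 2059 to 2091 in the induced t = 48 group, and 1523 to 1621 in the control group. Of 7 tested, 1 was higher at t = 8, 4 at t = 24 and 3 at t = 48 than at t = 0, and 3 were higher in induced than in control cells at t = 48. Of all genes, 1.1%, 5.96% and 9.93% were higher than at t = 0 at those times. Against control cells, 5.31% of all genes were higher. Most of the sum came from PDGFRA (741.5 at t = 0 and 1198 at t = 24) and COL1A1 (350 and 919). LUM, which encodes a matrix proteoglycan, averaged 160 ± 27.6 at t = 24 and 9.73 ± 3.57 at t = 0. THY1 did not rise (90.9 at t = 0, 88.6 at t = 24 and 74.3 in induced cells at t = 48). DCN (at most 22.2 in any group) and COL1A2 (at most 14.9) stayed near the background of the arrays. Summed markers of blood and endothelial cells (54.1 to 122), epithelial cells (34.3 to 83.0) and Schwann cells (0.9 to 13.6) were low in every group. The part of these cell types in the nucleolar differences was not tested.

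**Figure D3:**
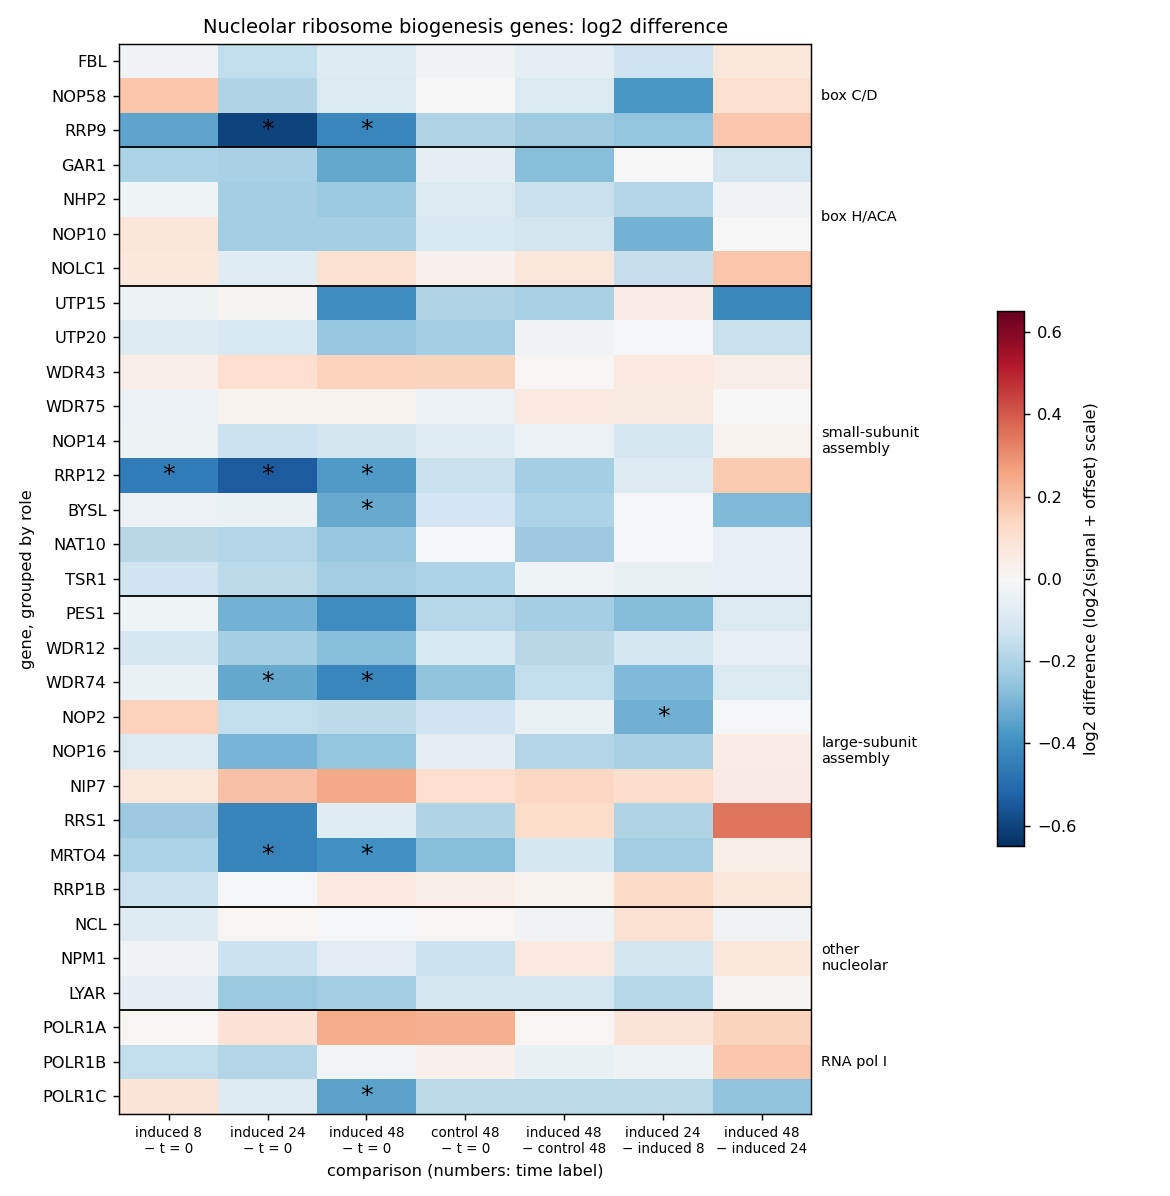
Log2 difference of each measured member (rows, by role) in 7 comparisons (columns), from blue (lower in the first-named group) to red (higher); asterisks mark an adjusted p under 0.05 by limma. Of 217 cells 12 are marked, all blue, and 9 of them belong to RRP9, RRP12, WDR74 and MRTO4.

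Among the box C/D proteins, RRP9 binds the U3 snoRNA, which guides early cleavages of the ribosomal RNA precursor. Its signal was 226.5, 198.1 and 235.3 in the t = 0 group, 171.9, 172.1 and 170.8 in the t = 8 group, 132.5, 150.7 and 146 in the t = 24 group and 161.7, 185.5 and 141.5 in the induced t = 48 group, and 189.2, 178.2 and 207.2 in the control group. Every induced array lay below every array of t = 0, and the control arrays overlapped with both t = 0 and induced t = 48. The log2 difference from t = 0 was -0.34 at t = 8 (SE 0.10, adjusted p = 0.158), -0.60 at t = 24 (SE 0.10, adjusted p = 0.00277) and -0.43 at t = 48 (SE 0.10, adjusted p = 0.0139). Induced against control cells at t = 48 gave -0.23 (adjusted p = 0.197) and control cells against t = 0 gave -0.19 (adjusted p = 0.524). Its fall at t = 24 was the difference among the members that passed in all 15 settings tried, with values of -0.67 to -0.55. RRP9 has 1 probe set, so the setting with the second-brightest probe set per gene read the same RRP9 values and could not test it.

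The promoter of RRP9 holds the letters CACGTG, the canonical E-box that dimers of MYC family proteins with MAX are known to bind, across the annotated gene start. It is shown because the fall of RRP9 at t = 24 passed under every setting tried, from 250 bases before the start to the last base of the E-box, 5′ to 3′ on the minus strand, at chr3:51941904-51942154 of GRCh38.p14 (RefSeq), with the E-box in capitals.
RRP9: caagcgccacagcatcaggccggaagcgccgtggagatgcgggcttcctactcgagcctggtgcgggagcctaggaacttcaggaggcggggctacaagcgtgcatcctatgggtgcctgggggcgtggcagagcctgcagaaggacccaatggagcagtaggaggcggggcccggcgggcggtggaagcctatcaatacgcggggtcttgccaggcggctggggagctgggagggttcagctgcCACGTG

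FBL, the methyltransferase of the box C/D particles, and NOP58, a core scaffold of the same particles, did not pass in any comparison. FBL read 2850.4, 3189.7 and 3086 in the t = 0 group, 3113.1, 2986.3 and 2881.3 in the t = 8 group, 2561.1, 2956.6 and 2663.6 in the t = 24 group and 3009.8, 2812.1 and 2783.6 in the induced t = 48 group, and 2943.2, 3010.7 and 3016.6 in the control group. The groups overlapped, and its difference at t = 48 from control cells was -0.06 (SE 0.08, adjusted p = 0.671). NOP58 averaged 1510 ± 89.0 at t = 24 and 1962 ± 122 at t = 8; these arrays did not overlap, and the step of -0.38 missed the threshold (adjusted p = 0.0549).

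Of the box H/ACA set, GAR1, NHP2 and NOP10, core proteins of the pseudouridylation particles, had negative differences at t = 24 (-0.21, -0.22 and -0.22) and t = 48 (-0.33, -0.24 and -0.22) from t = 0, and 0 of them passed. NHP2 came nearest, at 2103 ± 136 in induced cells at t = 48, 2485 ± 90.7 at t = 0 (adjusted p = 0.0618) and 2325 ± 39.0 in control cells. Its induced arrays lay below both other groups without overlap. GAR1 varied more between arrays of a group, with 462.4, 684.4 and 523.7 in induced cells at t = 48 and 811.3, 561.4 and 730.7 at t = 0.

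NOLC1, a nucleolar phosphoprotein that chaperones snoRNPs, differed between its probe sets. The brightest read 2635.5, 2397.7 and 2536.5 in the t = 0 group, 2582.7, 2469.5 and 2887.3 in the t = 8 group, 2375.5, 2199.7 and 2591.1 in the t = 24 group and 2408.8, 2935.7 and 2782.8 in the induced t = 48 group, and 2513.7, 2600.6 and 2588.3 in the control group. The groups overlapped, with a difference of 0.10 at t = 48 from t = 0 (adjusted p = 0.496). The other pair of NOLC1 probe sets gave -0.49 (adjusted p = 0.0568) and -0.52 (adjusted p = 0.0349) in the same comparison, with p-values adjusted over all 25036 probe sets tested. The direction of NOLC1 is therefore unsettled in these data.

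The small-subunit factors included 2 members that fell. RRP12, known from yeast to act in maturation and export of pre-ribosomal particles, read 239.7, 207.3 and 231.7 in the t = 0 group, 167.9, 167.4 and 154.5 in the t = 8 group, 134.9, 157.4 and 171.4 in the t = 24 group and 194.7, 174.2 and 155.1 in the induced t = 48 group, and 199.9, 203.3 and 207.5 in the control group. Each induced array lay below every array of t = 0 and below every control array; the highest control array just exceeded the lowest of t = 0. RRP12 was lower than at t = 0 at t = 8 (log2 difference -0.46, SE 0.10, adjusted p = 0.0389), t = 24 (-0.54, adjusted p = 0.00517) and t = 48 (-0.37, adjusted p = 0.0276). It was the only member past the threshold at t = 8, and that call held in 4 of 15 settings. At t = 48 it was -0.22 from control cells (adjusted p = 0.217). Its second probe set gave -0.165 at t = 8, -0.24 at t = 24 and -0.51 at t = 48 from t = 0, none past the threshold. Dimmer probe sets gave -0.07 and 0.20 at t = 8, also short of it, so the call at t = 8 rests on 1 probe set.

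BYSL, whose yeast counterpart Enp1 stays with the small-subunit precursor until late in its maturation, read 297.6, 304.9 and 305.3 in the t = 0 group, 295.5, 275.1 and 316 in the t = 8 group, 293.4, 288.8 and 298.8 in the t = 24 group and 251.3, 245.2 and 224.5 in the induced t = 48 group, and 244.1, 304.2 and 285.8 in the control group. The induced arrays of t = 48 lay below all other induced and t = 0 arrays, and 1 control array lay among them. BYSL was lower at t = 48 than at t = 0 (-0.33, SE 0.09, adjusted p = 0.0220), and its difference from control cells was -0.20 (adjusted p = 0.185). Its promoter window also holds the E-box letters.

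Of the other small-subunit members, NAT10, an acetyltransferase of ribosomal RNA, averaged 426 ± 20.5 in induced and 505 ± 62.2 in control cells at t = 48 (-0.24, SE 0.09, adjusted p = 0.113), with 505 ± 15.1 at t = 0. All 3 of its induced arrays at t = 48 were below both other groups. UTP15, a subunit of the complex that joins the nascent transcript first, was 172 ± 11.1 in induced cells at t = 48 and 233 ± 51.2 at t = 0 (-0.40, adjusted p = 0.179), with t = 0 arrays from 176.6 to 276.4. TSR1, a late factor related to GTPases, and UTP20 and NOP14, of the processome that forms on the early transcript, were negative at t = 24 and t = 48 from t = 0 (-0.25 to -0.10). WDR43 and WDR75, partners of UTP15 in that complex, were positive in both (0.02 to 0.15), and none of these passed.

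Of the large-subunit factors, 3 passed in at least 1 comparison. WDR74, which acts with the NVL ATPase in the maturation of the large-subunit precursor, read 456.5, 456.5 and 447 in the t = 0 group, 443, 435.5 and 439.1 in the t = 8 group, 312.7, 389.9 and 380.6 in the t = 24 group and 347.5, 355.4 and 309.6 in the induced t = 48 group, and 384.2, 368.3 and 380.7 in the control group. The arrays of t = 24 and t = 48, control arrays included, lay below those of t = 0 and t = 8, and the induced arrays of t = 48 lay below the control arrays. WDR74 was lower at t = 24 (-0.33, SE 0.09, adjusted p = 0.0279) and at t = 48 (-0.42, adjusted p = 0.00539) than at t = 0, with -0.16 from control cells at t = 48 (adjusted p = 0.279) and -0.26 for control cells from t = 0 (adjusted p = 0.243). A second WDR74 probe set went the other way, at 0.36 at t = 24 and 0.15 at t = 48 from t = 0, with neither past the threshold, so its direction rests on 1 probe set.

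MRTO4, known from yeast as a placeholder for the ribosomal stalk protein, read 262.2, 369.1 and 295.4 in the t = 0 group, 281.7, 265.5 and 246.4 in the t = 8 group, 208.2, 226.2 and 242.7 in the t = 24 group and 229.6, 256.2 and 210.9 in the induced t = 48 group, and 268.4, 238.6 and 247.7 in the control group. The t = 0 arrays were the most scattered. The induced arrays of t = 24 and t = 48 lay below them without overlap, while the control arrays overlapped with them. MRTO4 was lower at t = 24 (-0.43, SE 0.12, adjusted p = 0.0377) and t = 48 (-0.39, adjusted p = 0.0400), and its difference from control cells was -0.12 (adjusted p = 0.602). A second probe set gave -0.22 and -0.36, neither past the threshold.

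NOP2, a methyltransferase of large-subunit ribosomal RNA, read 370.9, 404.6 and 431.5 in the t = 0 group, 457.3, 430.4 and 453.4 in the t = 8 group, 356.5, 344.8 and 375.6 in the t = 24 group and 354.3, 369.4 and 344.1 in the induced t = 48 group, and 393.8, 357.9 and 348.6 in the control group. Its t = 8 arrays were the highest, with 1 of t = 0 among them, and the groups of t = 24, t = 48 and control overlapped. The step at t = 24 from t = 8 was -0.31 (SE 0.08, adjusted p = 0.0340), while the differences at t = 24 and t = 48 from t = 0 were -0.16 (adjusted p = 0.213) and -0.17 (adjusted p = 0.142). That call was lost without any 1 of the arrays of either group.

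**Figure D4:**
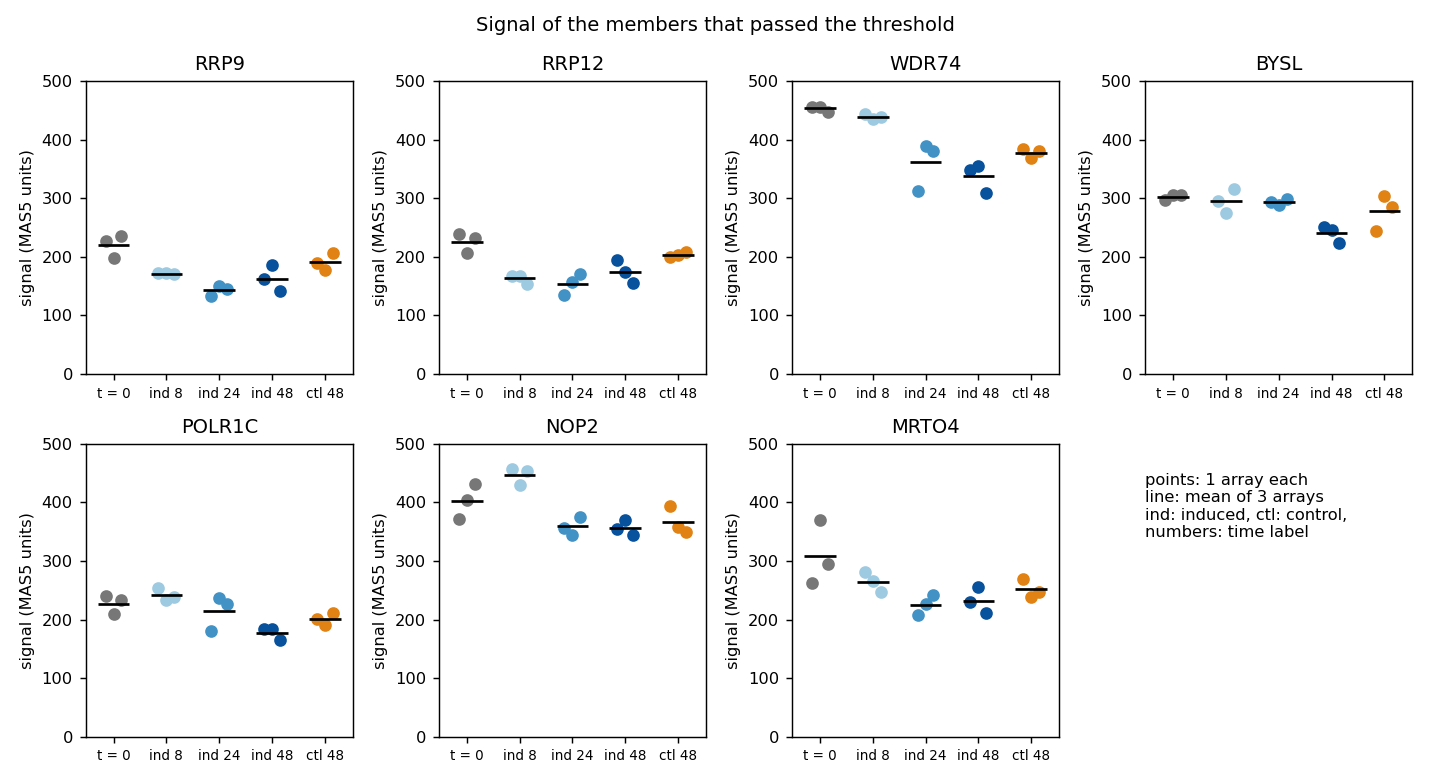
Signal (MAS5 units, axis from 0) of the 7 members that passed in at least 1 comparison, 1 point per array with the mean of 3 as a line, in the order t = 0, induced t = 8, 24 and 48, and control t = 48. RRP9 and RRP12 are lower on every induced array than at t = 0, and the induced arrays of BYSL at t = 48 lie below t = 0. The control means lie above the induced means of t = 48 in all 7. Of these, 6 passed at t = 48 from t = 0 on the same induced arrays, which favours that order in advance.

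PES1 and WDR12, partners of BOP1 in a complex needed for large-subunit rRNA processing, averaged 300.3 ± 49.5 and 741 ± 89.2 in induced cells at t = 48, against 396 ± 37.6 and 895 ± 48.5 at t = 0. The differences were -0.40 (adjusted p = 0.0739) and -0.28 (adjusted p = 0.114). RRS1, which helps to bring a ribosomal RNA particle into the large-subunit precursor, was -0.43 at t = 24 from t = 0 (adjusted p = 0.114) and -0.08 at t = 48. NOP16, another large-subunit assembly factor, was -0.30 and -0.25 at those times. NIP7, which acts in rRNA processing, was positive at both (0.19 and 0.25), and RRP1B, which brings a protein phosphatase to the nucleolus, was -0.01 and 0.06; 0 of these 6 passed.

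The abundant nucleolar proteins NPM1 and NCL, which chaperone pre-ribosomal particles and their RNA, showed no difference past the threshold. NPM1 (nucleophosmin) read 7570.5, 7832.8 and 6729.5 in the t = 0 group, 8222.1, 7160.4 and 6475.4 in the t = 8 group, 6527.4, 7301.6 and 6261.9 in the t = 24 group and 7752.6, 6118.1 and 7245.2 in the induced t = 48 group, and 7157.3, 6585.5 and 6352.8 in the control group. The groups overlapped throughout, and the difference between induced and control cells at t = 48 was 0.07 (SE 0.11, adjusted p = 0.767). NCL (nucleolin) read 3773.2, 3340.7 and 3509.9 in the t = 0 group, 3124.7, 3367.7 and 3529.8 in the t = 8 group, 3851.8, 3532.4 and 3342.9 in the t = 24 group and 3267.9, 3457.4 and 3833.2 in the induced t = 48 group, and 3500.9, 3640.6 and 3555.9 in the control group. Its groups also overlapped, with -0.02 between induced and control cells at t = 48 (SE 0.09, adjusted p = 0.904). LYAR, a zinc finger protein of the nucleolus, did not pass on its brighter probe set (-0.24 at t = 24 and -0.22 at t = 48 from t = 0). On its dimmer probe set it was lower at both (-0.44, adjusted p = 0.00307, and -0.53, adjusted p = 0.000668, over all probe sets).

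POLR1C, a subunit that RNA polymerases I and III share, was the 1 polymerase member of 3 that passed. It read 239.5, 209.3 and 233.1 in the t = 0 group, 253.3, 234.1 and 238.5 in the t = 8 group, 180.8, 236.6 and 227.2 in the t = 24 group and 184.6, 183.1 and 164.5 in the induced t = 48 group, and 200.3, 191.3 and 210.4 in the control group. The induced arrays of t = 48 lay below those of t = 0 and of control cells without overlap. POLR1C was lower at t = 48 than at t = 0 (-0.35, SE 0.10, adjusted p = 0.0324), with -0.17 from control cells (adjusted p = 0.324), and its second probe set gave -0.06 from t = 0. POLR1A, the largest subunit of RNA polymerase I, varied between 108.9 and 186.3 at t = 0 alone and was 0.24 at t = 48 from t = 0 (adjusted p = 0.449), while its other probe sets gave -0.36 and -0.17. POLR1B, the subunit next in size, was -0.19 at t = 24 from t = 0, with no overlap of arrays (adjusted p = 0.184), and -0.02 at t = 48, while its 3 other probe sets gave 0.29 to 0.38 at t = 48; none of these passed.

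Over all probe sets of the members, 58 of 62 passed the filter on low signal. Of these, 4 (6.90%) were lower and 0 higher at t = 24 than at t = 0, beside 3.01% and 4.29% of all 25036 probe sets tested. At t = 48 from t = 0, 7 (12.1%) were lower and 0 higher, beside 5.6% and 7.45% of all. Between induced and control cells at t = 48, 0 passed, while 2.2% of all were lower and 3.8% higher. Probe sets of 1 gene did not always give 1 answer: at t = 48 from t = 0, 8 of the 16 members with several that passed the filter (NIP7, NOLC1, POLR1A, POLR1B, RRP1B, TSR1, WDR12 and WDR74) had differences of both signs. RRP9, BYSL and NOP2 had 1 probe set each.

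The E-box letters CACGTG, which read the same on both strands, were searched in promoter windows of 300 bases, from 250 before to 50 after the annotated start, in RefSeq GRCh38.p14. Of the members tested, 26 had a window in the table and 11 of these (42.3%) held the letters, against 1080 of 10418 genes tested (10.4%). The share was 4 of 6 (66.7%) among members that passed in at least 1 comparison, RRP9, BYSL, MRTO4 and NOP2, and 7 of 20 (35.0%) among the others, NAT10, FBL, NOP10, NOP14, PES1, UTP20 and WDR43. With 6 genes in the first set these shares are a description, and the letters mark neither a bound site nor a cause. The E-boxes of BYSL, NOP2 and MRTO4 are shown beside that of RRP9 because these 4 members passed in a comparison and hold the letters, in windows of 30 bases, 5′ to 3′, with the letters in capitals. The positions are chr3:51941892-51941921 (minus strand) for RRP9, chr6:41921515-41921544 (plus strand) for BYSL, chr12:6568242-6568271 (minus strand) for NOP2 and chr1:19251807-19251836 (plus strand) for MRTO4.
RRP9: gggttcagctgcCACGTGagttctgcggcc
BYSL: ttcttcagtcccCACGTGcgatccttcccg
NOP2: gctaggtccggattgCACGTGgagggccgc
MRTO4: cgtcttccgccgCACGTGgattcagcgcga
The first base of the E-box lay at -5 in RRP9, 29 in BYSL, 36 in NOP2 and 15 in MRTO4, counted from 1 at the gene start with no position 0. In 11 of 11 members with the letters, 1 copy or the only copy lay between -15 and 36, and NOP10 held a second at -170. Positions of the letters in the windows of all genes were not compared, so a place near the start cannot be called particular to the members.

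**Figure D5:**
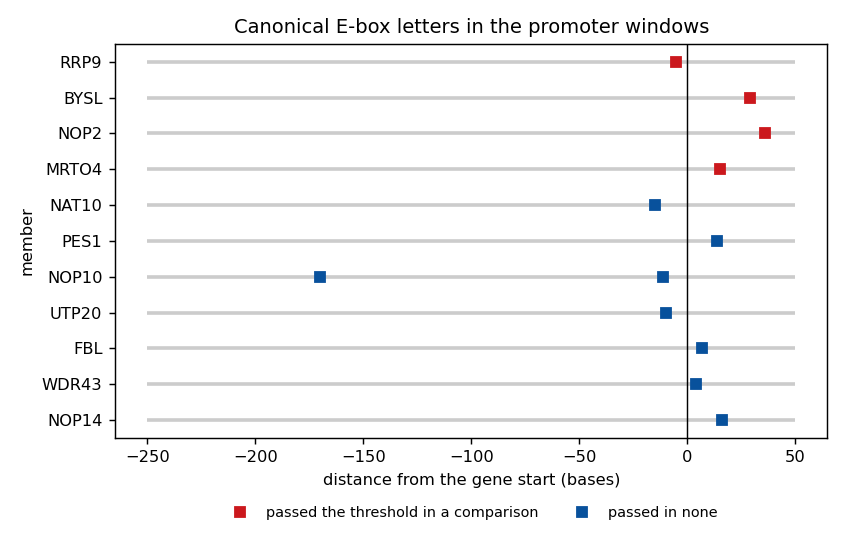
Position of the first base of the E-box letters in the promoter windows of the 11 members that hold them, in bases from the gene start; grey lines are the windows, red squares members past the threshold in a comparison and blue squares the others. The copies lie between -15 and 36, except 1 of the pair in NOP10 at -170.

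The level of MYCN did not differ past the threshold in any of the 7 comparisons. It averaged 5323 ± 432 in induced and 5483 ± 274 in control cells at t = 48 (-0.04, SE 0.08, adjusted p = 0.776), and 5203 ± 319 at t = 0. MYC read at most 6.13 on average in any group and did not pass the filter. In the MYC network, at t = 48 from t = 0, MXI1 (0.53) and MNT (0.32), which encode partners of MAX that repress transcription, were higher, and MLX (-0.37), a relative of MAX, was lower. Of 8 tested, 2 were thus higher and 1 lower, beside 9.93% and 8.2% of all genes. Between induced and control cells at t = 48, 0 of the 8 passed, beside 5.31% of all genes higher and 3.29% lower. MNT averaged 198 at t = 0, 248 in induced and 244 in control cells at t = 48. MXI1 averaged 414, 598 and 490 in the same groups, and MLX 864, 666.5 and 795.

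Other genes of ribosome biogenesis, 119 from a wider list with 113 tested, had mostly negative differences in induced cells too. At t = 24 from t = 0, 6 (5.31%) were lower and 0 higher, with a median of -0.14, beside 4.87% of all genes lower. At t = 48 from t = 0, 12 (10.6%) were lower and 1 higher, with a median of -0.15, beside 8.2% of all genes lower. Between induced and control cells at t = 48, 3 (2.65%), all of them small-subunit factors, were lower and 0 higher (median -0.09), beside 3.29% of all genes lower. The shares lower were near those of all genes. Of all genes, 5.96% at t = 24 and 9.93% at t = 48 from t = 0 were higher, and 5.31% against control cells. Rises were thus fewer in the wider list than among all genes. The medians were negative under all 3 scalings tried, but the counts varied. With each array centred on its median, the counts lower were 0 at t = 24 and 5 at t = 48 from t = 0, and 1 against control cells. All genes lower then numbered 238, 518 and 208 of 12868. With quantile normalization the counts lower were 5, 16 and 3, beside 631, 1163 and 474 of all genes. EMG1, a methyltransferase of small-subunit rRNA, averaged 406 ± 41.9 in induced and 580 ± 21.7 in control cells at t = 48 (-0.52, adjusted p = 0.0314), and 665 ± 67.9 at t = 0. TSR2, a chaperone of a small-subunit ribosomal protein, averaged 131 ± 9.30 in induced and 175 ± 10.3 in control cells (-0.40, adjusted p = 0.00870), and 184 ± 11.3 at t = 0. The other one, NOL10 (-0.35, adjusted p = 0.0148), is named because the count is small, after its values were seen. RRP36, of early small-subunit processing (-0.48), NLE1, of large-subunit assembly (-0.57), the SUMO protease SENP3 (-0.41) and EXOSC8, an exosome subunit (-0.36), were lower at t = 48 than at t = 0, and TAF1D, of an RNA polymerase I initiation factor, was higher (0.33).

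Cytoplasmic ribosomal protein genes, the structural parts of the ribosome, did not share the members' sign between induced and control cells at t = 48. Of 60 tested, 57 had positive differences there, with a median of 0.13 (0.05 with quantile normalization and 0.095 with arrays centred on their medians), and 0 passed (lowest adjusted p = 0.0640). Of all genes, 5.31% were higher and 3.29% lower in that comparison. At t = 24 from t = 0, 52 of the 60 were negative (median -0.08), which flipped to 21 of 60 negative (median 0.03) with quantile normalization. Of the 60, 1, RPS27L, was lower at t = 24 (-0.36, adjusted p = 0.0107), beside 4.87% of all genes. At t = 48 from t = 0, the median in induced cells was 0.04. RPS25 was higher (0.42) and RPS27L lower (-0.28), beside 9.93% of all genes higher and 8.2% lower. In control cells at t = 48 from t = 0, 55 of the 60 were negative (median -0.09). With quantile normalization 28 were negative there (median 0.003). Between induced and control cells, 46 of the 60 were still positive with quantile normalization. There, 1 was higher past the threshold, beside 638 of 12868 genes tested. With arrays centred on their medians, 52 were negative in control cells from t = 0, and 55 were positive between induced and control cells. The part of the control readings in the positive differences was not tested.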

How the data were processed

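The deposited values are MAS5 signal intensities on a linear scale from 15 Affymetrix arrays, which the authors obtained from GCOS (MAS5 algorithm) per the submitters' processing notes; no version, setting or genome build is given in the sources used here. The deposited intensity of every array had a mean of 100.01 after trimming 2 percent of probe sets at each end, so arrays had been scaled as wholes. Precision is limited by having 3 arrays per group. Of 54675 probe sets, 41091 carried 1 symbol, 1801 several, 11721 none listed, and 62 were array controls; 41037 matched RefSeq GRCh38.p14 by Entrez identifier. Some genes are not reported here.

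Signals were tested as log2(signal + 5.16), the offset being the mean lower quartile over arrays, which understates changes of dim genes. A gene was tested if 3 or more arrays gave a signal no lower than their own median. limma 3.58.1 in R 4.3.3 fitted 5 group means over all 15 arrays (eBayes, two-sided, Benjamini-Hochberg over 12868 genes, threshold 0.05), with 7 contrasts and a moderated F-test for the induced course. The fit was tested on simulated data. Figures were drawn with matplotlib 3.10.9.

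Members and lists were chosen with earlier results of these data known. Every member could be named. Those past the threshold in any contrast, and the 4 brightest of the others, are given on every array; from each other list, up to 2 rises and 2 falls per comparison. Alternatives covered the offset, scaling, filter, probe set, variance model, arrays in the fit, replicate block, the arrays with weak bioC and leaving out each array.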

Additional observations from a re-analysis of the deposited data

How the results depend on the processing

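The comparison of the induced with the control group, and that of the control group with t = 0, had 0 members past the threshold under every alternative run. The other counts depended on the processing, and the cause was not tested. With each array centred on its median, 0 members passed at t = 8, 1 at t = 24 and 0 at t = 48 from t = 0, 0 at t = 24 from t = 8, and 0 by the F-test; all genes called at t = 48 from t = 0 numbered 679 higher and 518 lower in that setting, against 1278 and 1055 as reported. With the compared groups alone fitted, the counts were 0, 1, 1 and 0 in the same 4 comparisons. With no filter on low signal they were 0, 2, 2 and 0, and 3 by the F-test. With the second-brightest probe set they were 0, 2, 3 and 0, and 3 by the F-test, and WDR74 reversed to 0.36 at t = 24 and 0.15 at t = 48 from t = 0. An intensity trend in the variance gave 9 at t = 48 from t = 0, 3 at t = 24 from t = 8 and 10 by the F-test. Quantile normalization gave 0 at t = 8. Without the pair of arrays with weak bioC, 3 passed at t = 48 from t = 0 and 0 at t = 24 from t = 8. Groups share replicate numbers, but deviations from group means correlated between -0.28 and 0.21 (median 0.009) over 30 same-numbered pairs, so the numbers were not taken to pair samples. With the replicate block, the counts were 0 at t = 8 and 2 at t = 24 from t = 0, 0 at t = 24 from t = 8, and 3 by the F-test; the count at t = 48 from t = 0 was 4, and no other count changed.

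Leaving out 1 array in turn gave 0 to 1 members at t = 8, 2 to 3 at t = 24 and 1 to 5 at t = 48 from t = 0, 0 at t = 24 from t = 8, 0 to 1 at t = 48 from t = 24 (1 without induced t = 24 replicate 1) and 3 to 5 by the F-test. Members' medians kept their sign in all 15 settings tried except at t = 48 from t = 24 (-0.02 to 0.04): -0.20 to -0.13 at t = 24 and -0.24 to -0.16 at t = 48 from t = 0, and -0.13 to -0.05 against control cells. Single calls at t = 24 or t = 48 from t = 0 held in 15 of 15 settings for RRP9 at t = 24, 13 for WDR74 at t = 48, 12 for RRP12 at t = 24, and 11 or fewer for the others. RRP9, BYSL and NOP2 have 1 probe set each, so the setting with the second-brightest probe set kept theirs. These numbers of settings are therefore not fully comparable between genes.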
